A study of Homo sapiens with 15 samples.

Results

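The genes described here are 31 enzymes and helper proteins of folate-dependent one-carbon metabolism, the methionine cycle and purine synthesis. They were chosen by gene symbol, out of 19775 genes that had at least 1 probe set with a single symbol, and each was read through its brightest probe set. Of the 31, 28 were among the 14369 genes tested, and SHMT1, MTHFD1L and ALDH1L2 stayed under the signal filter in every extract. The cells were SKOV3ip1, an established human ovarian cancer cell line of epithelial origin, measured on Affymetrix U133 Plus 2.0 arrays. There were 5 extracts. The folate-free extract (titled no MTF) came from cells kept for 7 days without folate. The 003 extract (5-MTF+003) and the MORAb003 extract (MTF+MORAb0003) came from cells kept for 7 days with folic acid at 2 to 10 nM (the labels write nm) and given the named antibody for 24 hours. The 004 extract (5-MTF+004) had the same medium with the 004 control antibody for 24 hours, and the folate extract (5-MTF) had the medium alone. The antibody known as MORAb-003 binds folate receptor alpha, and whether the sample names 003 and MORAb003 stand for a single antibody is not stated in the labels. Each condition was 1 cell growth and 1 RNA sample, hybridised as 3 aliquots, so every p-value below compares RNA extracts and carries no spread between cultures.

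Folate carries single carbon units between reactions. Mitochondrial enzymes take these units from serine and glycine and release formate, and cytosolic enzymes spend them on thymidylate, on the purine ring and on turning homocysteine back into methionine. Methionine then becomes S-adenosylmethionine, the methyl donor of the cell, and tumour cells that divide quickly draw heavily on all 3 branches.

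Values are log2 expression per probe set, and differences are log2 differences between extract means, so they are not compared as levels between genes. A gene is called, and described as having risen or fallen, at a Benjamini-Hochberg adjusted p under 0.05 over the 14369 genes, provided that the extracts differ 1.5-fold or more. Correlations between arrays of 1 extract were 0.993 to 0.998 where 004 replicate 1 was not involved, and that array reached 0.948 to 0.95 with the others of its extract. On that array all 28 tested members lay below the mean of the other 004 arrays, with a median difference of -0.775, and 71% of all tested genes did so. Calls and differences against the 004 extract are therefore given with and without it where it moves them, as are 004 extract means. The gap between the 3′ and 5′ control probe sets of actin, which widens as RNA breaks down, was 4.09 ± 0.157 in the folate-free, 4.02 ± 0.102 in the 003, 2.42 ± 0.131 in the MORAb003, 3.46 ± 0.312 in the 004 and 3.24 ± 0.129 in the folate extract (SD, n = 3 arrays). The gap was thus widest in the folate-free and 003 extracts and narrowest in the MORAb003 extract, and its part in the differences between those extracts was not tested. All 8 epithelial markers passed the filter, with extract means from 7.17 to 14.4 and summed log2 levels of 93.4 in the folate-free, 93.04 in the 003, 93.51 in the MORAb003, 91.57 in the 004 and 92.54 in the folate extract. The 004 sum includes replicate 1. Without that array the 004 means were higher for EPCAM (13.8, against 13.73 with it), KRT8 (12.34, 12.1), KRT18 (14.09, 13.97) and KRT19 (13.4, 13.23). The same held for CDH1 (10.87, 10.51), MUC1 (8.08, 7.87) and PAX8 (12.84, 12.72), while CLDN4 was lower (7.37, 7.43). Of the 8 epithelial markers, MUC1 and CLDN4 rose against the folate extract in the folate-free (1.08 and 0.61) and 003 extracts (0.63 and 0.59). For comparison, 0.905% and 0.431% of all genes rose there. CDH1 went the other way, with means of 10.17 in the folate-free, 10.29 in the 003 and 10.98 in the folate extract. On all arrays 0 of the 8 fell in either comparison, and 1 fell in each without 004 replicate 1. MAT2B and DLD fell in the same comparisons, and the part of these markers in those results was not tested. Of 4 leukocyte markers with a probe set, 1 passed (CD3E), and their extract means ran from 5.80 to 7.13. The summed log2 level of these 4 was 25.23 in the folate-free, 25.64 in the 003, 25.2 in the MORAb003, 25.54 in the 004 and 25.08 in the folate extract. For 7 fibroblast and endothelial markers, of which 6 passed, it was 52.19, 52.95, 51.51, 51.89 and 52.09 in the same order of extracts. These 004 sums also include replicate 1. In bulk RNA, fewer cells of a type and less RNA per cell cannot be told apart.

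**Figure D1:**
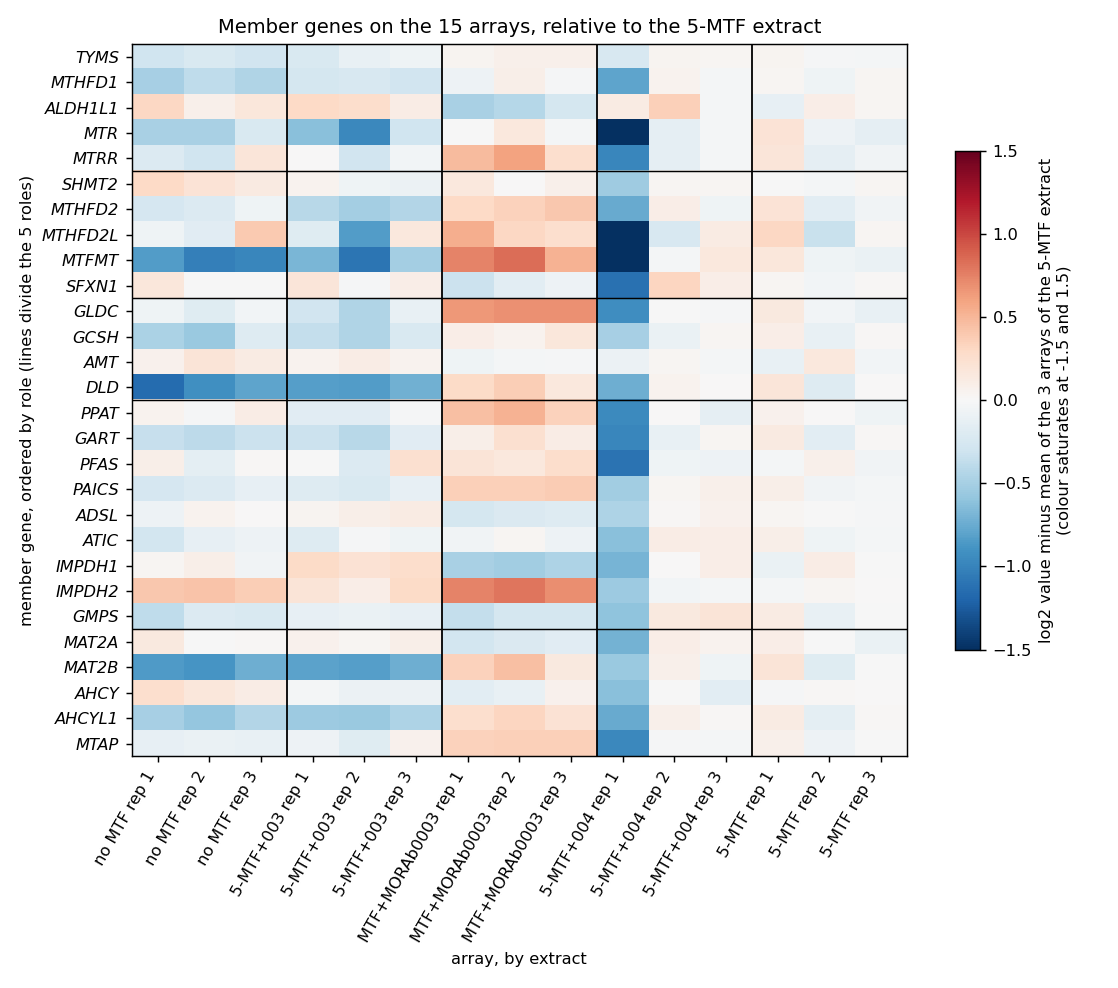
Log2 value of the 28 tested members (rows, by role) on each of the 15 arrays (columns, by extract), minus the mean of the 3 folate arrays. DLD, MAT2B, MTFMT and AHCYL1 are blue in the no MTF and 5-MTF+003 columns, GLDC and IMPDH2 are red in the MTF+MORAb0003 columns, and the column of 5-MTF+004 replicate 1 is blue for nearly every member.

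Against the folate extract 4 of these genes were called. MAT2B and DLD were lower in the folate-free and 003 extracts than in the folate extract, while IMPDH2 and GLDC were higher in the MORAb003 extract. In the folate-free against the folate extract 2 of 28 members fell and 0 rose, against 1.8% and 0.905% of all tested genes. The same 2 fell and 0 rose in the 003 against the folate extract, against 1.59% and 0.431% of all genes. In the 003 against the 004 extract 1 fell (MAT2B) and 0 rose, against 0.397% and 3.07%. The shares that fell exceed those of all genes, but they rest on 1 or 2 members.

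Against the folate extract the MORAb003 extract had more called genes in all (945) than the folate-free (389) or 003 extract (290), but the same number of called members, 2. These 2 members rose (GLDC and IMPDH2) and 0 fell, beside 4.77% and 1.81% of all genes. Against the 004 extract 8 rose (28.6% of 28) and 0 fell, beside 17.6% and 2.32% of all genes. Between the 003 and MORAb003 extracts 2 were higher in 003 (ALDH1L1 and IMPDH1) and 6 lower (21.4%), beside 7.79% and 17.6%, so the share that fell was near that of all genes. Between the 004 and folate extracts 0 members were called, as were 0% of all genes by limma, higher or lower; 1276 genes and 0 members had an unadjusted p under 0.05. These comparisons share extracts: the folate extract enters 4 of the 7, and the 003 extract 3.

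Leaving out replicate 1 of the 004 extract changes the pooled spread of the fit, and with it comparisons that do not use the 004 extract. In the folate-free against the folate extract 3 members then fell (MTFMT joined), beside 5.09% of all genes lower and 1.33% higher. In the 003 against the folate extract 4 fell (MTFMT and MTR joined), beside 6.45% lower and 0.731% higher. Against the 004 extract 3 members fell in the 003 extract (MTFMT, DLD and MAT2B), beside 5.45% lower and 0.793% higher. The MORAb003 extract kept 3 risen members against the 004 extract, namely MTFMT, GLDC and IMPDH2, beside 9.79% higher and 2.37% lower. The same 3 rose against the folate extract, beside 8.23% higher and 1.96% lower. Relative to the MORAb003 extract, 2 rose and 8 fell in the 003 extract (MTR and MTHFD2L joined), beside 7.88% higher and 18.5% lower. Between the 004 and folate extracts the counts stayed at 0 members and 0% of genes, with 481 genes and 1 member at an unadjusted p under 0.05.

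**Figure D2:**
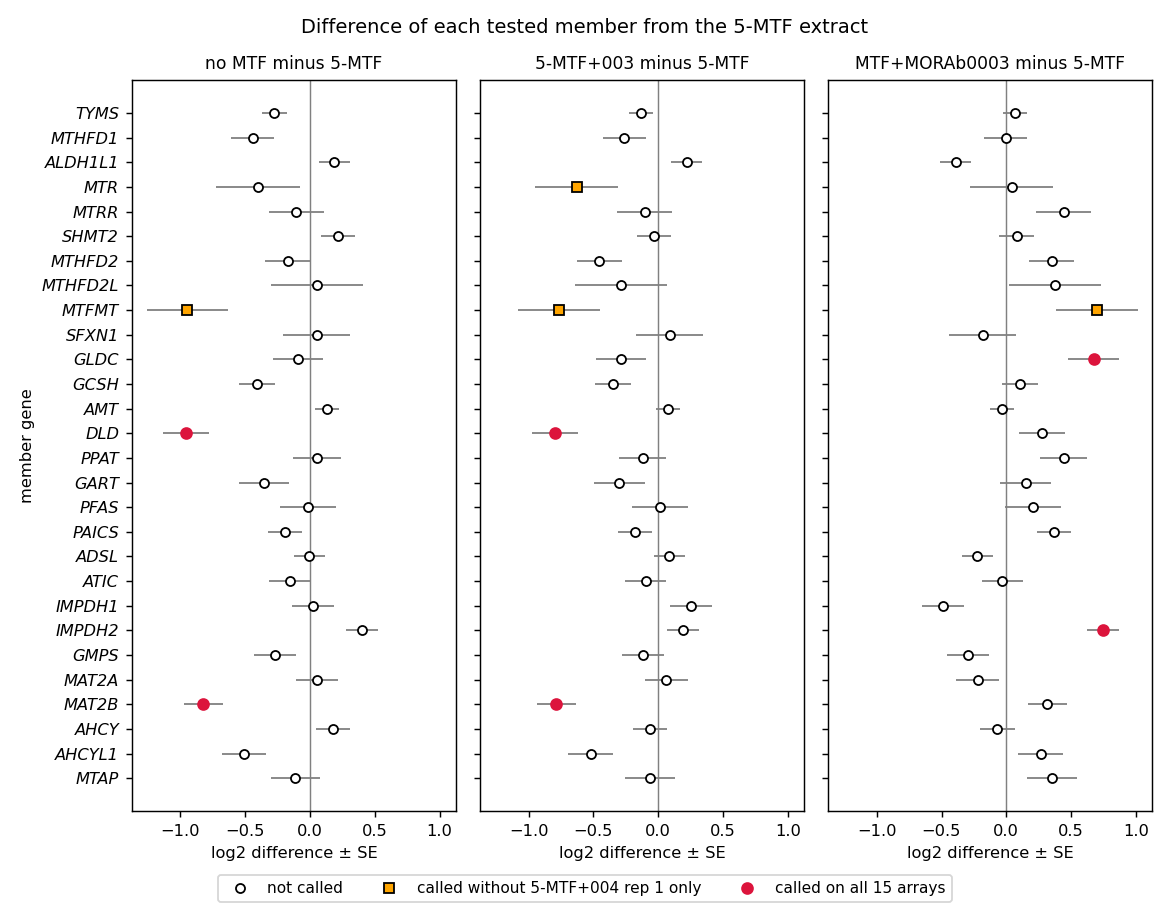
Log2 difference (± SE of the limma fit on all 15 arrays) of the 28 tested members from the folate extract (5-MTF), for the no MTF, 5-MTF+003 and MTF+MORAb0003 extracts. Filled red circles are called on all 15 arrays, orange squares are called once replicate 1 of the 5-MTF+004 extract is left out, and open circles are not called; MAT2B and DLD stand at -0.82 and -0.96 in the left panel.

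Of the 5 methionine and S-adenosylmethionine members, 1 fell in the folate-free and in the 003 against the folate extract, namely MAT2B, the regulatory subunit of S-adenosylmethionine synthetase, and 2 fell in the 003 against the MORAb003 extract. For comparison, 1.8%, 1.59% and 17.6% of all tested genes fell in these comparisons, in the same order. MAT2B read 10.69, 10.65 and 10.81 on the folate-free arrays, 10.73, 10.71 and 10.81 on the 003 arrays, 11.89, 11.99 and 11.68 on the MORAb003 arrays, 10.99, 11.62 and 11.47 on the 004 arrays, and 11.73, 11.36 and 11.53 on the folate arrays. All arrays of the folate-free and 003 extracts lay below every other array, and the MORAb003 arrays overlapped only the folate arrays. The difference of the folate-free from the folate extract was -0.82 (SE 0.151, adjusted p = 0.0102), which is 0.565 of the folate level on the linear scale. That call was lost in 4 of the 15 fits that left out 1 array (without folate-free replicates 1 and 2 or folate replicates 1 and 3), where the adjusted p was 0.0526 to 0.074. Without 004 replicate 1, which enters only the pooled spread here, the adjusted p was 1.77e-05. MAT2B in the 003 extract differed by -0.79 (SE 0.151, adjusted p = 0.0211) from the folate extract and by -0.61 (SE 0.151, adjusted p = 0.0329) from the 004 extract. The first of these was not called without 003 replicates 1 and 2 or folate replicates 1 and 3 (adjusted p 0.0868 to 0.135), and had an adjusted p of 3.3e-05 without 004 replicate 1. The second was not called without folate-free replicate 2, 003 replicates 1, 2 and 3, MORAb003 replicate 1, 004 replicates 2 and 3 or folate replicate 3 (adjusted p 0.0501 to 0.118), and without 004 replicate 1 it was -0.79 (adjusted p = 0.000124). Its largest difference was between the 003 and MORAb003 extracts, at -1.10 (SE 0.151, adjusted p = 0.000117), and it was called in all 15 fits that left out 1 array. A second MAT2B probe set lay under the filter. With the mean of both probe sets the difference of the folate-free from the folate extract was -0.49 (adjusted p = 0.0256), under 1.5-fold. On the arrays of the first date alone the brightest probe set gave -0.88 (adjusted p = 0.324). That fit had 2 arrays per extract and called no gene at all in this comparison, so it cannot set MAT2B apart. The actin 3′ to 5′ gap was widest in the extracts where MAT2B was lowest, and its part in this difference was not tested.

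AHCYL1, a relative of S-adenosylhomocysteine hydrolase that binds the inositol trisphosphate receptor, was also low in the folate-free and 003 extracts, with smaller differences. AHCYL1 read 10.90, 10.81 and 10.95 on the folate-free arrays, 10.86, 10.84 and 10.93 on the 003 arrays, 11.65, 11.72 and 11.61 on the MORAb003 arrays, 10.64, 11.47 and 11.41 on the 004 arrays, and 11.52, 11.25 and 11.41 on the folate arrays. The folate-free and 003 arrays lay together below the MORAb003 and folate arrays, as did replicate 1 of the 004 extract, the lowest array. It fell in the 003 against the MORAb003 extract, by 0.79 on the log2 scale (SE 0.171, adjusted p = 0.00249), and was called in all 15 fits that left out 1 array. Its differences from the folate extract were not called, at -0.51 (SE 0.171, adjusted p = 0.115) in the folate-free and -0.52 (SE 0.171, adjusted p = 0.105) in the 003 extract. The other AHCYL1 probe sets above the filter gave -0.13 and -1.19 for the 003 minus the MORAb003 extract.

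The rest of this branch moved less. MTAP, which recovers adenine and methionine from methylthioadenosine, read 8.95, 8.98 and 8.97 on the folate-free arrays, 9.01, 8.90 and 9.15 on the 003 arrays, 9.43, 9.43 and 9.43 on the MORAb003 arrays, 8.11, 9.06 and 9.05 on the 004 arrays, and 9.16, 9.0 and 9.08 on the folate arrays. The MORAb003 arrays were the highest and lay apart from all the others, while replicate 1 of the 004 extract was the lowest. MTAP rose in the MORAb003 against the 004 extract by 0.69 (SE 0.19, adjusted p = 0.0144), and without 004 replicate 1 the difference was 0.38 (adjusted p = 0.00144), under 1.5-fold. The other MTAP probe sets above the filter gave 0.08 and 0.20 for that difference on all 15 arrays, and 0.10 and 0.02 without 004 replicate 1. MAT2A, the catalytic subunit that MAT2B regulates, was not called in any of the 7 comparisons and had extract means of 11.61 in the folate-free extract, 11.62 in the 003 extract, 11.33 in the MORAb003 extract, 11.37 (11.63 without replicate 1) in the 004 extract and 11.55 in the folate extract. AHCY, the hydrolase that clears S-adenosylhomocysteine, was not called either, with means of 12.90 in the folate-free extract, 12.66 in the 003 extract, 12.66 in the MORAb003 extract, 12.46 (12.65 without replicate 1) in the 004 extract and 12.73 in the folate extract. The order of the extracts thus differed between the subunits MAT2A and MAT2B: on this scale the 003 minus MORAb003 difference was 0.28 for MAT2A (adjusted p = 0.172) and -1.10 for MAT2B. A second MAT2A probe set gave -0.86, opposite in sign to the brightest one.

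The glycine cleavage system is a mitochondrial complex that breaks glycine into carbon dioxide, ammonia and a folate-bound carbon unit. Of its 4 members, DLD fell in the folate-free and 003 extracts and GLDC rose in the MORAb003 extract, each against the folate extract. Among all tested genes, 1.8% and 1.59% fell in the first 2 of these comparisons and 4.77% rose in the last. GCSH and AMT were called in no comparison. DLD is the dihydrolipoamide dehydrogenase of the system and also serves the pyruvate and 2-oxoglutarate dehydrogenase complexes. DLD read 10.36, 10.59 and 10.72 on the folate-free arrays, 10.69, 10.67 and 10.79 on the 003 arrays, 11.80, 11.88 and 11.67 on the MORAb003 arrays, 10.78, 11.56 and 11.51 on the 004 arrays, and 11.69, 11.32 and 11.52 on the folate arrays. The folate-free and 003 arrays were the lowest apart from replicate 1 of the 004 extract, which fell among them, and the MORAb003 arrays overlapped only the folate arrays. DLD fell in the folate-free against the folate extract, by 0.96 on the log2 scale (SE 0.177, adjusted p = 0.0108), though not without folate-free replicate 1 or folate replicates 1 and 3 (adjusted p 0.0558 to 0.0769). Without 004 replicate 1, which enters only the pooled spread here, the adjusted p was 6.87e-06. In the 003 extract the difference was -0.79 (SE 0.177, adjusted p = 0.0304) against the folate extract, a call lost in 8 of the 15 fits that left out 1 array (without folate-free replicate 2, 003 replicates 1, 2 and 3, MORAb003 replicate 1 or folate replicates 1, 2 and 3), with an adjusted p of 0.0514 to 0.192. That call held without 004 replicate 1 (adjusted p = 3.84e-05). Against the 004 extract the difference was -0.57 (SE 0.177, adjusted p = 0.0722), not called, and -0.82 (adjusted p = 0.000119), called, without 004 replicate 1. DLD fell in the 003 against the MORAb003 extract by 1.07 on the log2 scale (SE 0.177, adjusted p = 0.000433), in all 15 fits that left out 1 array. A dimmer DLD probe set gave 0.01 for the folate-free and -0.06 for the 003 extract, each minus the folate extract, and -0.49 for the 003 minus the MORAb003 extract. With the mean of all DLD probe sets the difference of the folate-free from the folate extract was -0.47 (adjusted p = 0.11), not called. On the arrays of the first date alone the brightest probe set gave -1.03 (adjusted p = 0.286), in a fit that called no gene at all in this comparison.

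GLDC, the decarboxylase that starts glycine cleavage (chr9:6532467-6645729 in GRCh38.p14), read 10.93, 10.81 and 10.95 on the folate-free arrays, 10.70, 10.54 and 10.87 on the 003 arrays, 11.64, 11.67 and 11.68 on the MORAb003 arrays, 10.06, 10.98 and 10.97 on the 004 arrays, and 11.13, 10.95 and 10.88 on the folate arrays. All MORAb003 arrays lay above every other array, the 003 arrays lay just below the folate arrays, and the other extracts overlapped. GLDC rose in the MORAb003 extract by 0.99 (SE 0.193, adjusted p = 0.0026) against the 004 extract, and by 0.69 (adjusted p = 5.11e-05) without 004 replicate 1. Against the folate extract it rose by 0.67 (SE 0.193, adjusted p = 0.0391), and this call was lost in 10 of the 15 fits that left out 1 array (without folate-free replicates 1, 2 and 3, 003 replicate 1, MORAb003 replicates 1, 2 and 3 or folate replicates 1, 2 and 3), where the adjusted p was 0.0543 to 0.141. All 10 of these fits keep 004 replicate 1 in the pooled spread. Without that array GLDC was called in this comparison (SE 0.0875, adjusted p = 1.94e-05). In the 003 against the MORAb003 extract it fell by 0.96 on the log2 scale (SE 0.193, adjusted p = 0.00157), in all 15 such fits. GCSH, the lipoyl carrier protein of the complex, was not called in any comparison and had means of 12.33 in the folate-free extract, 12.39 in the 003 extract, 12.84 in the MORAb003 extract, 12.54 (12.70 without replicate 1) in the 004 extract and 12.73 in the folate extract. Its 003 minus MORAb003 difference was -0.45 (SE 0.138, adjusted p = 0.0164), under 1.5-fold, and its second probe set gave -0.63. AMT, the aminomethyltransferase of the complex, had the narrowest range of the 28 members, as its extract means lay within 0.164 of each other without 004 replicate 1.

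Promoter sequence is shown for DLD, MAT2B and AHCYL1, which were lowest in the same 2 extracts (folate-free and 003), and for PPAT, whose promoter held a searched motif. Other members, among them TYMS, MTHFD1, GCSH, PAICS and MTFMT, also had their lowest means in those extracts and are not shown. Each window runs from 250 bases before to 50 bases after the RefSeq transcription start, 5′ to 3′ on the gene's strand in build GRCh38.p14; capitals mark a CACGTG E-box, the element bound by MYC and related factors. The windows are chr7:107890857-107891156 on the plus strand, chr5:163502814-163503113 on the plus strand, chr1:109984515-109984814 on the plus strand and chr4:56435566-56435865 on the minus strand.
DLD: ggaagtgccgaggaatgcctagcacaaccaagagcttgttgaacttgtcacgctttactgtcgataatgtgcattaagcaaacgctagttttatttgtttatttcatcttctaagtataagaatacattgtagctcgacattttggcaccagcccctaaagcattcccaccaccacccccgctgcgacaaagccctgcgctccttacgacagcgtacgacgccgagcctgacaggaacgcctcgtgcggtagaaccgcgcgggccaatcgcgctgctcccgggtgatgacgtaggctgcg
MAT2B: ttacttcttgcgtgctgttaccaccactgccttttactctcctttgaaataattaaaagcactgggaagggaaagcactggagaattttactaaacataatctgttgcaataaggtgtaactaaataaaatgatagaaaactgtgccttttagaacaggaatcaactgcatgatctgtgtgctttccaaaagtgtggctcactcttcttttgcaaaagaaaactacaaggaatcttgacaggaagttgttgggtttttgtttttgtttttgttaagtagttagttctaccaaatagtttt
AHCYL1: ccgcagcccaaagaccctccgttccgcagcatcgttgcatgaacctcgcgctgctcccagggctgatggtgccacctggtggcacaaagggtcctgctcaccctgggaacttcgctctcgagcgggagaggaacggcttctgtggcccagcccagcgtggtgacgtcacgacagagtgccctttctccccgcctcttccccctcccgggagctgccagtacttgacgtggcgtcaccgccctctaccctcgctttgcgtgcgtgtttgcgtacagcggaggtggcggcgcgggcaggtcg
PPAT: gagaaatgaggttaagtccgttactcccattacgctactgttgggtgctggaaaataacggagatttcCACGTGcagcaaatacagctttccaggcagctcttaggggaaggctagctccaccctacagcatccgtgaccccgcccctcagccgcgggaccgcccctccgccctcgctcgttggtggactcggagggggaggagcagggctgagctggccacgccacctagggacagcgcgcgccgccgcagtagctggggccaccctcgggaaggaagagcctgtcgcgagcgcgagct
RefSeq promoters were matched for 25 of the 31 members. They were searched on both strands for CACGTG, for TGATGNAA (the composite element of ATF4) and for the palindromic core element of NRF1. CACGTG was found in 4 of 25 member windows (PPAT, ATIC, MTHFD1 and MTHFD1L) and in 7.26% of 35116 promoter windows of the same length. TGATGNAA was found in 1 (MTHFD1L), against 3.62% of all windows, and the NRF1 element in 1 (MTHFD1), against 1.24%. In PPAT the E-box spans bases -182 to -177 from the start. No 2 of the motifs overlapped in a member window. The DLD, MAT2B and AHCYL1 windows held none of the 3 strings.

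**Figure D3:**
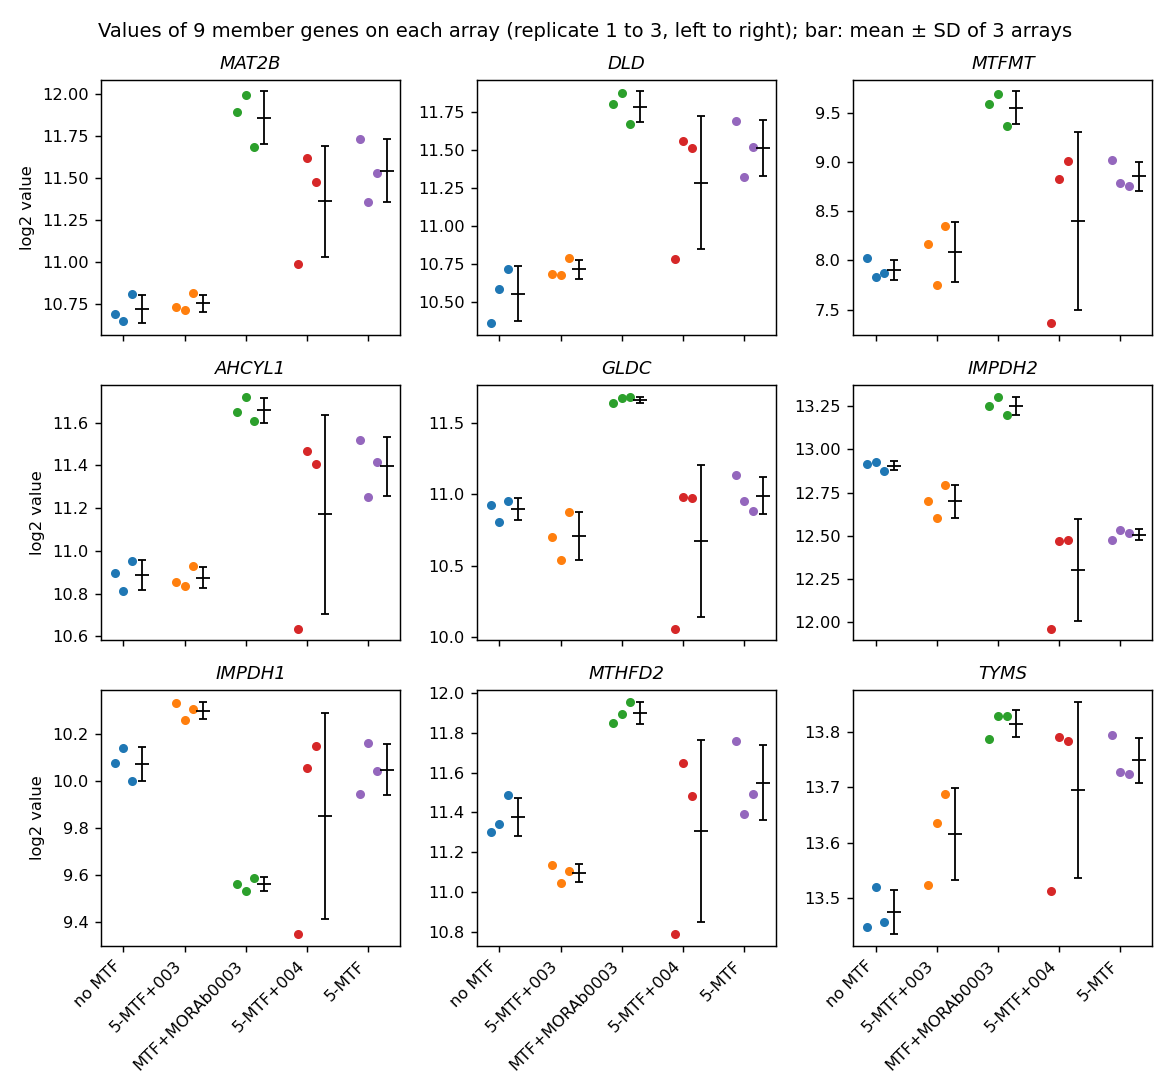
Log2 value of 9 members on each of the 3 arrays of each extract (coloured points, replicate 1 to 3 from left to right), with the mean ± SD of the 3 arrays beside them (bars). MAT2B, DLD, MTFMT and AHCYL1 are low in the no MTF and 5-MTF+003 extracts; IMPDH2 is highest and IMPDH1 lowest in MTF+MORAb0003 among arrays other than 5-MTF+004 replicate 1; the TYMS panel spans a narrower range than the others.

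In the mitochondrial folate branch, where 5 of 7 members were tested, 0 were called in the folate-free or 003 against the folate extract. There 1.8% and 1.59% of all tested genes fell and 0.905% and 0.431% rose, in the same order. In the 003 against the MORAb003 extract 2 fell, as did 17.6% of all tested genes. The widest range of all 28 members belonged to MTFMT, which formylates the initiator methionyl-tRNA of mitochondrial translation with a folate-bound carbon (chr15:65001512-65029639). Without 004 replicate 1 its extract means spanned 1.648, against a median of 0.533 over the members and 0.411 over all tested genes. MTFMT read 8.02, 7.83 and 7.87 on the folate-free arrays, 8.17, 7.75 and 8.35 on the 003 arrays, 9.60, 9.70 and 9.37 on the MORAb003 arrays, 7.36, 8.83 and 9.01 on the 004 arrays, and 9.02, 8.79 and 8.76 on the folate arrays. The folate-free and 003 arrays lay below the MORAb003 and folate arrays, the MORAb003 arrays lay above all others, and replicate 1 of the 004 extract was the lowest of all 15. MTFMT fell in the 003 against the MORAb003 extract by 1.47 on the log2 scale (SE 0.314, adjusted p = 0.00225), in all 15 fits that left out 1 array. It rose in the MORAb003 against the 004 extract by 1.16 (SE 0.314, adjusted p = 0.0137), and by 0.63 (adjusted p = 0.0023) without 004 replicate 1; the call was lost without MORAb003 replicate 2 (adjusted p = 0.0518). The difference of the folate-free from the folate extract was -0.95 (SE 0.314, adjusted p = 0.109) on all arrays, not called, and was called without 004 replicate 1 (adjusted p = 5.45e-05). The same held for the 003 extract against the folate extract, at -0.77 with an adjusted p of 0.178 on all arrays and 0.000315 without that array. For the MORAb003 extract against the folate extract the difference of 0.70 had an adjusted p of 0.166 on all arrays and 0.000429 without it. The array read MTFMT through 1 probe set.

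MTHFD2, the mitochondrial methylenetetrahydrofolate dehydrogenase of growing cells (chr2:74198615-74217565), read 11.30, 11.34 and 11.49 on the folate-free arrays, 11.13, 11.05 and 11.11 on the 003 arrays, 11.85, 11.89 and 11.96 on the MORAb003 arrays, 10.79, 11.65 and 11.48 on the 004 arrays, and 11.76, 11.39 and 11.50 on the folate arrays. The MORAb003 arrays were above all others, and the 003 arrays were below all but replicate 1 of the 004 extract. MTHFD2 fell in the 003 against the MORAb003 extract by 0.80 on the log2 scale (SE 0.174, adjusted p = 0.00244), in all 15 such fits. In the MORAb003 against the 004 extract it rose by 0.59 (SE 0.174, adjusted p = 0.0193); without 004 replicate 1 the difference was 0.33 (adjusted p = 0.0135), under 1.5-fold, and the call was also lost without MORAb003 replicate 2 or 3, the adjusted p being at most 0.057. Its second probe set gave -0.86 for the 003 minus the MORAb003 extract, close to the -0.80 of the brightest.

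SHMT2, which takes the carbon unit from serine inside mitochondria, was not called in any comparison. It read 12.28, 12.19 and 12.11 on the folate-free arrays, 12.04, 11.92 and 11.90 on the 003 arrays, 12.14, 11.99 and 12.06 on the MORAb003 arrays, 11.45, 12.01 and 12.02 on the 004 arrays, and 11.98, 11.95 and 12.01 on the folate arrays. Apart from replicate 1 of the 004 extract its arrays lay between 11.90 and 12.28, and the folate-free arrays were high within that range. Its difference of the folate-free from the folate extract was 0.21 (SE 0.133, adjusted p = 0.433). MTHFD2L, the paralog of MTHFD2, had means of 7.78 in the folate-free extract, 7.44 in the 003 extract, 8.10 in the MORAb003 extract, 7.17 (7.67 without replicate 1) in the 004 extract and 7.72 in the folate extract; it was called in the 003 against the MORAb003 extract without 004 replicate 1 (-0.66, adjusted p = 0.0119) and not on all arrays (adjusted p = 0.144). SFXN1, a serine transporter of the inner mitochondrial membrane, was not called, with means of 9.70 in the folate-free extract, 9.73 in the 003 extract, 9.46 in the MORAb003 extract, 9.41 (9.86 without replicate 1) in the 004 extract and 9.64 in the folate extract. MTHFD1L, the formate-releasing synthetase, had means of 5.46 in the folate-free extract, 5.68 in the 003 extract, 5.35 in the MORAb003 extract, 5.77 (5.50 without replicate 1) in the 004 extract and 5.43 in the folate extract, all under the filter at 6.60. ALDH1L2, which oxidises formyltetrahydrofolate in mitochondria, was also under it, with its highest mean in the MORAb003 extract; its means were 5.75 in the folate-free extract, 5.74 in the 003 extract, 6.49 in the MORAb003 extract, 5.73 (5.97 without replicate 1) in the 004 extract and 6.0 in the folate extract.

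Of the 9 purine members 0 were called in the folate-free or 003 against the folate extract. Of all tested genes, 1.8% and 1.59% fell and 0.905% and 0.431% rose in these comparisons, in the same order. In the MORAb003 against the folate extract, where 4.77% of all genes rose, 1 member rose. That was IMPDH2 (chr3:49024325-49029398), whose extracts ran in another order than those of its paralog IMPDH1 (chr7:128392277-128409982); both oxidise inosine monophosphate on the way to guanine nucleotides. IMPDH2 read 12.91, 12.93 and 12.87 on the folate-free arrays, 12.70, 12.61 and 12.80 on the 003 arrays, 13.25, 13.31 and 13.20 on the MORAb003 arrays, 11.96, 12.47 and 12.47 on the 004 arrays, and 12.47, 12.53 and 12.51 on the folate arrays. All MORAb003 arrays were above every other array, and the folate-free and 003 arrays were above the folate and 004 arrays. IMPDH2 rose in the MORAb003 extract by 0.95 (SE 0.123, adjusted p = 0.00024) against the 004 extract, by 0.78 (adjusted p = 1.5e-06) without 004 replicate 1, and by 0.75 (SE 0.123, adjusted p = 0.00243) against the folate extract. Both calls were made in all 15 fits that left out 1 array. Its difference of the folate-free from the folate extract was 0.40 (SE 0.123, adjusted p = 0.0864), not called.

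IMPDH1 read 10.08, 10.14 and 10.00 on the folate-free arrays, 10.34, 10.26 and 10.31 on the 003 arrays, 9.56, 9.53 and 9.59 on the MORAb003 arrays, 9.35, 10.05 and 10.15 on the 004 arrays, and 9.95, 10.16 and 10.04 on the folate arrays. The 003 arrays were the highest, and the MORAb003 arrays were below all others but replicate 1 of the 004 extract. IMPDH1 rose in the 003 against the MORAb003 extract by 0.74 (SE 0.161, adjusted p = 0.00247), in all 15 such fits, whereas IMPDH2 differed there by -0.55 (SE 0.123, adjusted p = 0.00295), under 1.5-fold. Each of the paralogs has 1 probe set on the array. GMPS, which turns the product of both into guanosine monophosphate, was not called, with means of 10.72 in the folate-free extract, 10.87 in the 003 extract, 10.69 in the MORAb003 extract, 10.90 (11.16 without replicate 1) in the 004 extract and 10.99 in the folate extract. Its probe sets disagreed: for the 003 minus the MORAb003 extract the brightest gave 0.18 and the others -0.97 and -0.27.

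PPAT, the amidotransferase of the first committed step of the purine ring, read 10.99, 10.92 and 11.05 on the folate-free arrays, 10.77, 10.76 and 10.92 on the 003 arrays, 11.39, 11.46 and 11.28 on the MORAb003 arrays, 9.98, 10.94 and 10.80 on the 004 arrays, and 11, 10.94 and 10.87 on the folate arrays. The MORAb003 arrays lay above all others, and replicate 1 of the 004 extract stood below all others. PPAT rose in the MORAb003 against the 004 extract by 0.81 (SE 0.183, adjusted p = 0.00594); without 004 replicate 1 the difference was 0.51 (adjusted p = 0.000196), under 1.5-fold. Its other probe sets above the filter gave 1.20 and -0.68 on all arrays, and 0.97 and -0.26 without it, so the 3 did not share a direction. PAICS, whose gene is the known divergent neighbour of PPAT and which carries out a pair of later steps, had means of 12.14 in the folate-free extract, 12.15 in the 003 extract, 12.70 in the MORAb003 extract, 12.19 (12.38 without replicate 1) in the 004 extract and 12.33 in the folate extract. Its differences had an adjusted p under 0.05 but stayed under 1.5-fold, at 0.50 (SE 0.132, adjusted p = 0.0114) in the MORAb003 against the 004 extract (0.31, adjusted p = 0.0032, without 004 replicate 1) and -0.55 (SE 0.132, adjusted p = 0.00456) in the 003 against the MORAb003 extract. A second PAICS probe set was nearly as bright (mean 12.23, against 12.3). It gave 0.07 for the first difference, -0.11 without 004 replicate 1, and -0.49 for the second.

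PFAS, the formylglycinamidine synthase of the same pathway, read 10.61, 10.37 and 10.53 on the folate-free arrays, 10.51, 10.31 and 10.76 on the 003 arrays, 10.71, 10.68 and 10.79 on the MORAb003 arrays, 9.41, 10.45 and 10.44 on the 004 arrays, and 10.49, 10.59 and 10.47 on the folate arrays. Apart from replicate 1 of the 004 extract the arrays lay between 10.31 and 10.79, and the MORAb003 arrays overlapped the 003 arrays and lay above the rest. PFAS rose in the MORAb003 against the 004 extract by 0.63 (SE 0.217, adjusted p = 0.0381), and without 004 replicate 1 the difference was 0.28 (adjusted p = 0.0461), under 1.5-fold. That call was lost in 7 of the 15 fits that left out 1 array (without 003 replicate 1, MORAb003 replicates 1, 2 and 3, 004 replicate 1 or folate replicates 2 and 3), with an adjusted p of 0.0461 to 0.0949. The folate-dependent steps of the ring are carried out by GART and ATIC. GART was not called, with means of 9.87 in the folate-free extract, 9.92 in the 003 extract, 10.37 in the MORAb003 extract, 9.87 (10.18 without replicate 1) in the 004 extract and 10.22 in the folate extract. ATIC was not called, with means of 12.19 in the folate-free extract, 12.24 in the 003 extract, 12.31 in the MORAb003 extract, 12.20 (12.45 without replicate 1) in the 004 extract and 12.34 in the folate extract. ADSL, the lyase that acts in both the ring and the adenine branch, had means of 12.83 in the folate-free extract, 12.92 in the 003 extract, 12.61 in the MORAb003 extract, 12.71 (12.88 without replicate 1) in the 004 extract and 12.84 in the folate extract and was not called either.

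In the cytosolic branch 0 of 5 tested members were called in the folate-free, 003 or MORAb003 against the folate extract. Of all tested genes, 1.8%, 1.59% and 1.81% fell and 0.905%, 0.431% and 4.77% rose there, in the same order. Thymidylate synthase (TYMS), which uses a folate-bound carbon to make the thymine nucleotide, was not called in any comparison. TYMS read 13.45, 13.52 and 13.46 on the folate-free arrays, 13.52, 13.64 and 13.69 on the 003 arrays, 13.79, 13.83 and 13.83 on the MORAb003 arrays, 13.51, 13.79 and 13.78 on the 004 arrays, and 13.79, 13.73 and 13.72 on the folate arrays. The folate-free arrays lay below all folate arrays and reached up to the lowest 003 array, and the whole range was 13.45 to 13.83. The difference of the folate-free from the folate extract was -0.27 (SE 0.0955, adjusted p = 0.126) on all arrays and -0.27 (adjusted p = 0.00396) without 004 replicate 1, under 1.5-fold. A second TYMS probe set gave -0.84 for that difference and -0.90 for the 003 minus the MORAb003 extract, while another, dim one gave 0.22 and 0.01. Of 15 S phase genes, 0 were called in the folate-free against the folate extract; in the 003 against the MORAb003 extract 5 fell, among them CCNE2 (-1.53, adjusted p = 0.00163) and CDC6 (-1.23, adjusted p = 0.00705), which act at the entry into DNA replication. For comparison, 17.6% of all tested genes fell in the latter comparison, and 1.8% fell and 0.905% rose in the former.

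ALDH1L1, the cytosolic formyltetrahydrofolate dehydrogenase, was lowest in the MORAb003 extract, with means of 7.72 in the folate-free extract, 7.75 in the 003 extract, 7.14 in the MORAb003 extract, 7.68 (7.69 without replicate 1) in the 004 extract and 7.53 in the folate extract. It rose in the 003 against the MORAb003 extract by 0.61 (SE 0.119, adjusted p = 0.00123), just past 1.5-fold, and without 003 replicate 1 or MORAb003 replicate 1 the difference dropped under 1.5-fold (adjusted p 0.0077 to 0.00793). A second ALDH1L1 probe set gave 0.32. With the mean of its probe sets the difference was 0.47 (adjusted p = 0.00347), under 1.5-fold. Methionine synthase (MTR) had means of 8.57 in the folate-free extract, 8.34 in the 003 extract, 9.01 in the MORAb003 extract, 8.36 (8.89 without replicate 1) in the 004 extract and 8.97 in the folate extract. MTR was called without 004 replicate 1 and not on all arrays, at -0.63 in the 003 against the folate extract (adjusted p = 0.00196 without that array, 0.272 with it) and -0.67 in the 003 against the MORAb003 extract (0.000402 and 0.104). A second MTR probe set gave -0.21 and -1.17 for these differences. For the folate-free minus the folate extract it gave 0.05 (brightest -0.40), and for the MORAb003 minus the folate extract 0.96 (brightest 0.04).

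MTRR, the reductase that reactivates methionine synthase, read 9.12, 9.03 and 9.51 on the folate-free arrays, 9.34, 9.05 and 9.29 on the 003 arrays, 9.81, 9.93 and 9.58 on the MORAb003 arrays, 8.36, 9.20 and 9.30 on the 004 arrays, and 9.51, 9.20 and 9.28 on the folate arrays. The MORAb003 arrays were above all others, and the remaining extracts overlapped. MTRR rose in the MORAb003 against the 004 extract by 0.82 (SE 0.212, adjusted p = 0.0108); without 004 replicate 1 the difference was 0.53 (adjusted p = 0.00666), under 1.5-fold. MTHFD1, the trifunctional enzyme that links formate to the cytosolic folate pool, was not called, with means of 11.60 in the folate-free extract, 11.78 in the 003 extract, 12.03 in the MORAb003 extract, 11.78 (12.05 without replicate 1) in the 004 extract and 12.04 in the folate extract. SHMT1, the cytosolic serine hydroxymethyltransferase, was under the filter with means of 6.18 in the folate-free extract, 6.14 in the 003 extract, 6.28 in the MORAb003 extract, 6.16 (6.17 without replicate 1) in the 004 extract and 6.15 in the folate extract.

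For the 8 members that rose in the MORAb003 against the 004 extract, replicate 1 of the 004 extract thus decided 5 calls (MTRR, MTHFD2, PPAT, PFAS and MTAP), each of which fell short of 1.5-fold without it. In a fit of the 6 arrays of those extracts alone, 0 of the 8 were called. That fit keeps 004 replicate 1 and called far fewer genes in all, as given below, than the 2862 of 14369 called on all 15 arrays. It therefore does not set these members apart from other genes. The median difference of the 28 members in the MORAb003 against the 004 extract was 0.49 on all arrays, beside 0.04 over all tested genes. It was 0.17 beside -0.05 without 004 replicate 1. For the 003 against the 004 extract it was 0.06 beside 0.07 on all arrays, and -0.19 beside 0.01 without it. For the 004 against the folate extract it was -0.22 beside -0.13, and 0.01 beside 0.01 without it. In comparisons that do not use the 004 extract the median was -0.11 beside 0.01 in the folate-free and -0.12 beside 0.03 in the 003 against the folate extract, 0.13 beside -0.04 in the MORAb003 against the folate extract, and -0.43 beside 0.09 in the 003 against the MORAb003 extract.

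**Figure D4:**
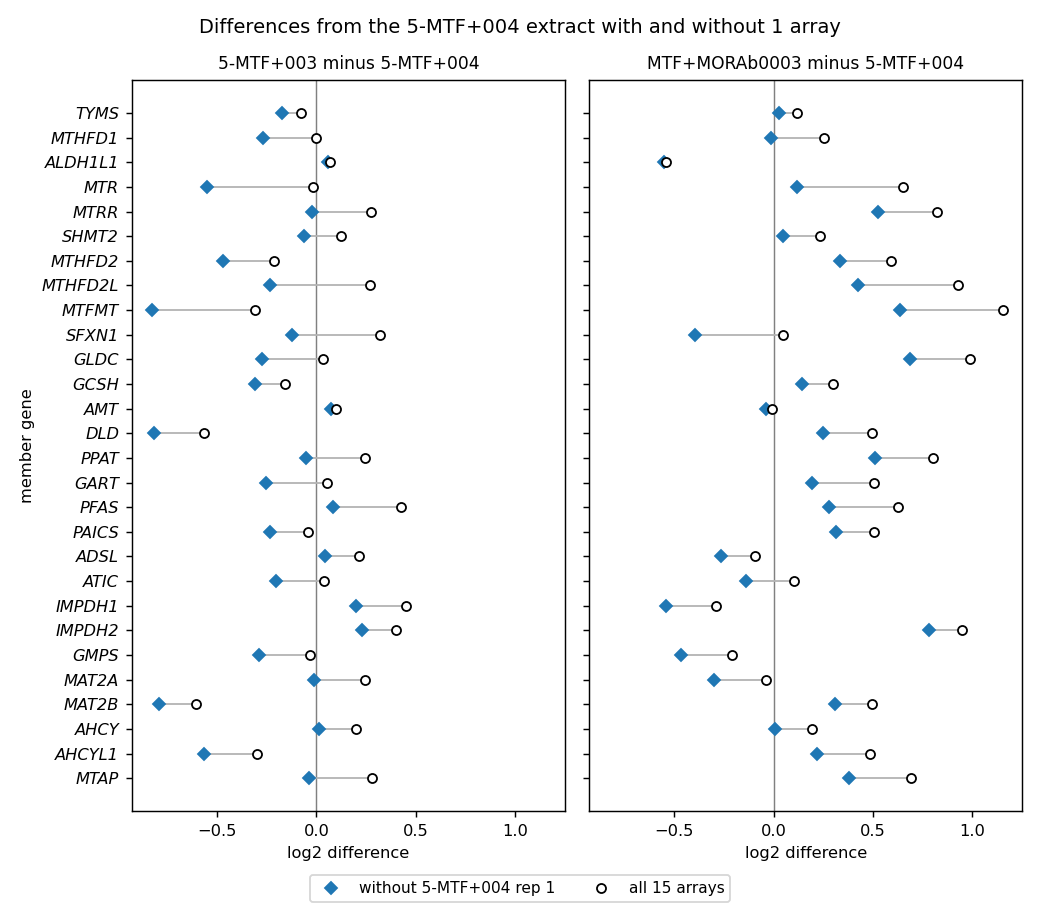
Log2 difference of each tested member from the 5-MTF+004 extract, for the 5-MTF+003 extract (left) and the MTF+MORAb0003 extract (right), on all 15 arrays (open circles) and without replicate 1 of the 5-MTF+004 extract (blue diamonds). The diamonds lie to the left of the circles for all 28 members; the median in the right panel is 0.49 with the array and 0.17 without it.

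Ranked by extract mean without that array, 17 of 28 members were highest in the MORAb003 extract, where 31.8% of all genes were, and 0 were highest in the folate extract (5.05% of all genes). The lowest mean lay in the folate-free extract for 11 members (16% of all genes), in the 003 extract for 7 (22.4%) and in the MORAb003 extract for 7 (44.7%). The 7 lowest in the MORAb003 extract were ADSL, ALDH1L1, AMT, GMPS, IMPDH1, MAT2A and SFXN1. The actin 3′ to 5′ gap was narrowest in the MORAb003 and widest in the folate-free and 003 extracts, and its part in this ranking was not tested.

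The 31 members had 80 probe sets, and 18 members had others above the filter besides the brightest, 25 in all. Of these 25, 17 had the sign of the brightest probe set in the 003 minus the MORAb003 extract. The number was 15 in the folate-free, 16 in the 003, 17 in the MORAb003 and 20 in the 004 minus the folate extract (14 without 004 replicate 1). Against the 004 extract it was 15 in the 003 (18 without that array) and 18 in the MORAb003 extract (16 without it). TYMS, SHMT2, SFXN1, PPAT, GMPS, MAT2A and MTHFD2L had probe sets of both signs in the 003 minus the MORAb003 extract, whereas those of MTHFD2, MTR, MTRR, DLD, GCSH, PAICS, GART, AHCYL1 and MTAP were all negative.

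**Figure D5:**
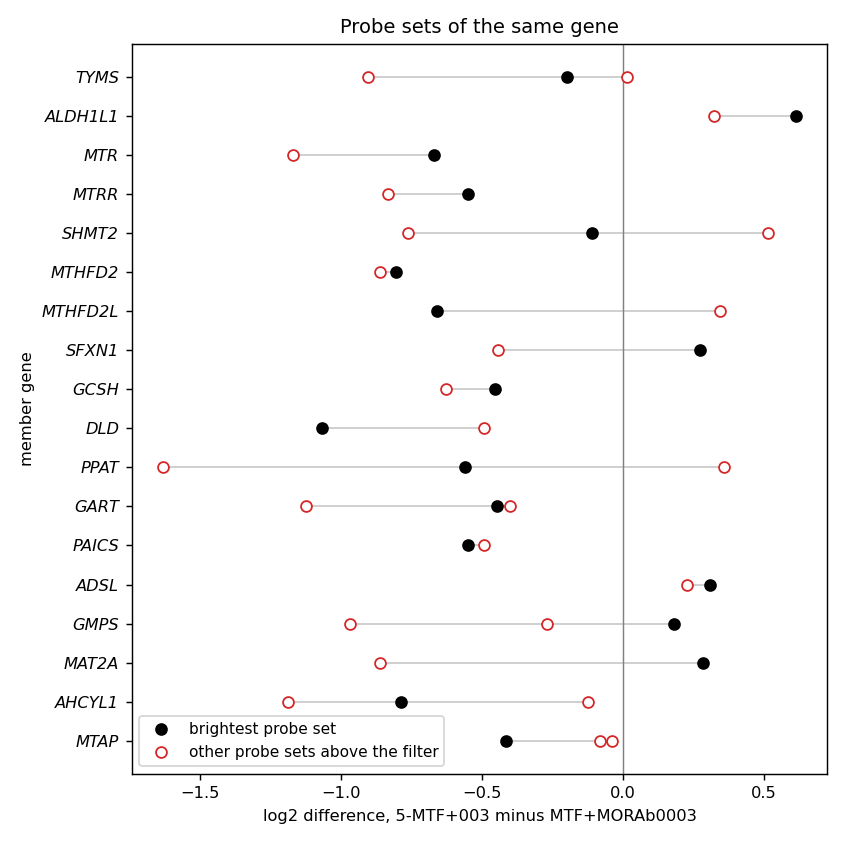
Log2 difference, 5-MTF+003 minus MTF+MORAb0003, of the brightest probe set (black) and of the other probe sets above the filter (open red) for 18 members with more than 1. Both MTHFD2 probe sets lie near -0.80, while the PPAT probe sets run from -1.63 to 0.36.

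Of 9 other folate genes, 6 were tested. GGH, the hydrolase that removes the glutamate tail of stored folates, had extract means of 10.32 in the folate-free, 10.28 in the 003, 11.39 in the MORAb003, 10.90 (11.16 without replicate 1) in the 004 and 11.08 in the folate extract. It fell against the folate extract in the folate-free (-0.75, adjusted p = 0.0277) and 003 extracts (-0.80, adjusted p = 0.0276), the extracts where MAT2B and DLD fell. SLC25A32, the mitochondrial folate carrier, had means of 7.78, 8.14, 9.61, 7.86 (8.43 without 004 replicate 1) and 8.38 in the same order of extracts. It rose in the MORAb003 extract against the folate (1.23, adjusted p = 0.0319) and 004 extracts (1.75, or 1.18 without 004 replicate 1). SLC19A1, the reduced folate carrier of the cell surface, fell in the MORAb003 against the folate extract (-0.59, adjusted p = 0.0369). In the folate-free against the folate extract 1 of the 6 fell and 0 rose, beside 1.8% and 0.905% of all genes. In the 003 against the MORAb003 extract 1 rose and 2 fell, beside 7.79% and 17.6% of all genes.

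Of 14 other methionine and homocysteine genes 13 were tested. In the folate-free against the folate extract, beside 1.8% of all genes lower and 0.905% higher, 2 fell and 0 rose. These were ENOPH1 (-0.86, adjusted p = 0.0357) and APIP (-0.72, adjusted p = 0.0364), enzymes that return the methylthio group of methylthioadenosine to methionine downstream of MTAP. ADI1, which acts after them, fell in the MORAb003 against the folate extract (-0.86, adjusted p = 0.000611), while CTH, which makes cysteine from cystathionine, rose there by 1.75 (adjusted p = 0.00275). CTH had means of 9.30 in the folate-free, 8.41 in the 003, 11.15 in the MORAb003, 8.74 (9.23 without replicate 1) in the 004 and 9.40 in the folate extract, and its difference of the 003 from the MORAb003 extract was -2.74 (adjusted p = 2.41e-05). In that comparison 2 of the 13 rose and 4 fell, beside 7.79% and 17.6% of all genes.

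Of 13 other purine genes 9 were tested. HPRT1, which salvages hypoxanthine and guanine, fell in the folate-free (-0.79, adjusted p = 0.0143) and 003 extracts (-0.67, adjusted p = 0.0375) against the folate extract, the single call of the 9 in each. Of all genes, 1.8% fell in the folate-free and 1.59% in the 003 extract. Among 10 ATF4 response genes, which mark amino acid shortage, 0 were called in the folate-free against the folate extract, beside 1.8% of all genes lower and 0.905% higher. Against the folate extract 2 fell in the 003 extract, namely ASNS (-1.28, adjusted p = 0.0112), the asparagine synthetase, and VLDLR (-0.94, adjusted p = 0.03), a lipoprotein receptor. In the MORAb003 against the folate extract 2 rose, PSPH (0.95, adjusted p = 0.037), the last enzyme of serine synthesis, and VLDLR (0.89, adjusted p = 0.0167). For comparison, 1.59% of all genes fell in the 003 and 4.77% rose in the MORAb003 extract, each against the folate extract.

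When each extract was reduced to the mean of its 3 arrays, the 003 and MORAb003 extracts were set together against the 004 and folate extracts, with the folate-free extract as a group of its own. This fit had 2 residual degrees of freedom and assumed that the 003 and MORAb003 cultures shared a treatment. By limma 0 members and 0% of all genes passed an adjusted p under 0.05, and 0 members and 47 genes had an unadjusted p under 0.05. Relative to the folate extract, the 003 and MORAb003 extracts differed in sign for MAT2B, at -0.79 and 0.32, for DLD, at -0.79 and 0.27, and for GLDC, at -0.29 and 0.67.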

How the data were processed

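Total RNA of SKOV3ip1 cells was labelled as biotinylated cRNA and hybridised to 15 Affymetrix U133 Plus 2.0 arrays, 3 per condition, per the labels' protocols. The values are log2 expression per probe set as deposited by the authors, from 4 to 15.5, with array medians of 6.53 to 6.67; how they were summarised and normalised is not given in the sources used here, and the log2 scale was read from the values. They were used without further normalization.

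Of 54675 probe sets, 41091 had 1 gene symbol in the platform annotation (41037 updated through their Entrez ID), 1801 had several, 11721 had none and 62 were controls. Each gene was read through its probe set of highest mean, and genes with an extract mean of at least 6.6 (the median of non-control probe sets) were tested. limma 3.58.1 in R 4.3.3 fitted all 15 arrays at once with lmFit and eBayes (10 residual degrees of freedom, no covariate), for 7 comparisons, with Benjamini-Hochberg adjustment over all tested genes within each. A call needed an adjusted p under 0.05 and 1.5-fold. The script was tested on simulated data.

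Groups were taken from the sample titles. The 31 members and the other gene lists were chosen with earlier results of these data known. Values of every array are given for up to 12 called members with the largest differences and for TYMS, MAT2B, MTFMT, GLDC, MTHFD2 and SHMT2; other members get extract means. Alternatives were quantile normalization, other filters, the mean of all probe sets, other fold minimums, array date, a replicate block, array weights, another variance prior, the 6 arrays compared and leaving out each array. Some genes of the other pathway lists were not analysed here. Promoter sequences and gene positions are from RefSeq, GRCh38.p14.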

Additional observations from a re-analysis of the deposited data

How the results depend on the processing

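The comparisons are named here by their extracts, and counts refer to the 28 members unless all genes are named. Removing the signal filter, taking the array date as a covariate and using an intensity trend with robust priors kept every count of called members and genes within 1.5 times its value. The stricter filter did too, and moved the member median of MORAb003 minus folate to 0.179. With quantile normalization, members called were 2 for 003 against 004 and 4 for MORAb003 against 004 (3 higher, 1 lower). All genes called were 642 for folate-free against folate (258 higher and 384 lower, against 130 higher and 259 lower in the values as deposited) and 625 for 003 against folate (204 higher and 421 lower, against 62 higher and 228 lower). The split was 366 higher and 198 lower for 003 against 004 (against 441 higher and 57 lower), 1683 higher and 946 lower for MORAb003 against 004 (against 2529 higher and 333 lower), 597 higher and 420 lower for MORAb003 against folate (against 685 higher and 260 lower) and 1639 higher and 2004 lower for 003 against MORAb003 (against 1120 higher and 2532 lower). Member medians under it were -0.0303 for folate-free minus folate, -0.0209 for 003 minus folate, 0.188 for MORAb003 minus 004, 0.0698 for MORAb003 minus folate and -0.238 for 003 minus MORAb003. It shifted the median of all genes by -0.14 for MORAb003 minus 004 and by 0.13 for 004 minus folate. With every gene's probe sets averaged, members called were 0 for folate-free against folate, 0 for 003 against folate and 0 for 003 against 004. All genes called were 192 for folate-free against folate, 299 for 003 against 004, 172 for 003 against folate, 1886 for MORAb003 against 004 and 551 for MORAb003 against folate, and the member medians of MORAb003 minus folate and 003 minus MORAb003 were 0.194 and -0.315. With a 2-fold minimum, 1 member stayed called for MORAb003 against 004 and 3 for 003 against MORAb003, and 0 in each of the other comparisons; genes called were 64 for folate-free against folate, 31 for 003 against 004, 58 for 003 against folate, 1121 for MORAb003 against 004, 240 for MORAb003 against folate and 1430 for 003 against MORAb003. With no fold minimum, 13 members were called for MORAb003 against 004 (12 higher, 1 lower) and 13 for 003 against MORAb003, and genes called were 857 for 003 against 004, 441 for 003 against folate, 5046 for MORAb003 against 004, 1600 for MORAb003 against folate and 6412 for 003 against MORAb003.

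Replicates 1 and 2 of every extract carry the first array date and replicate 3 the second. On the first date alone, members called were 0 for folate-free against folate, 0 for 003 against 004, 0 for 003 against folate and 0 for MORAb003 against folate; genes called were 0, 0, 0 and 22 in the same order, and the member median of folate-free minus folate was -0.194. The second date holds 1 array per extract and gives no test; its member medians were -0.0333 for folate-free minus folate, -0.037 for 003 minus folate, 0.136 for MORAb003 minus 004 and -0.264 for 003 minus MORAb003. With only the 6 arrays compared, members called were 0 for 003 against 004, 4 for 003 against folate and 0 for MORAb003 against 004; genes called were 919 for folate-free against folate, 0 for 003 against 004, 1029 for 003 against folate, 25 for MORAb003 against 004 and 1465 for MORAb003 against folate. With array weights, which gave 004 replicate 1 a weight of 0.0254, members called were 4 for 003 against 004 and 4 for MORAb003 against 004, where the member median was 0.193; genes called were 956 for folate-free against folate, 987 (174 higher and 813 lower) for 003 against 004, 1033 for 003 against folate, 1900 for MORAb003 against 004 and 1606 for MORAb003 against folate. The replicate numbers did not pair the arrays: deviations of same-numbered arrays from their extract means correlated from -0.545 to 0.524, and 5 of 15 arrays correlated best with their own number. With the replicate number as a block, members called were 0 for 003 against 004 (MAT2B, adjusted p = 0.0537) and 1 for MORAb003 against folate (GLDC lost, adjusted p = 0.0523), and it changed no other count of called members.

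Leaving out each array in turn gave 0 to 3 called members for folate-free against folate, 0 to 3 for 003 against 004, 0 to 4 for 003 against folate, 3 to 15 for MORAb003 against 004, 1 to 3 for MORAb003 against folate, 7 to 10 for 003 against MORAb003 and 0 for 004 against folate. Genes called ranged over 91 to 922, 13 to 1175, 1 to 1032, 1748 to 4345, 427 to 1465, 3095 to 3869 and 0 in that order. Member medians ranged over -0.163 to -0.0477, -0.188 to 0.202, -0.157 to -0.0817, 0.167 to 0.605, 0.0691 to 0.176, -0.496 to -0.37 and -0.367 to 0.0135. Of 23 called member differences, 10 were called in all 15 of these fits. The fit of extract means gave 0 called members in each setting run. Over 105 single differences and all settings, 2491 of 2723 values kept direction and side of the threshold, 94 were no longer called, 35 became called, 32 values without a test moved by more than their spread with the same sign, and 71 changed sign, 0 of which were called before or after. Without 004 replicate 1 these included 003 minus 004 for GLDC (0.03 on all arrays, -0.27 without it), PPAT (0.24, -0.05), MTRR (0.28, -0.02), MTAP (0.28, -0.04) and SHMT2 (0.13, -0.06). The member median of 003 minus 004 also changed sign with array weights (-0.173), without 004 replicate 1 (-0.188) and on the second date (-0.0962), and that of 004 minus folate did so in the same settings (0.0295, 0.0135 and 0.0138). The causes of these changes were not tested. With 1 culture per condition, a difference between treatments and one between cultures cannot be told apart, and the number of arrays limits the precision.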

Other observations

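Genes around the described enzymes that were called in the 003 against the MORAb003 extract, beyond those given above, differed in direction within the purine and methionine lists. In purine salvage and supply, APRT, which salvages adenine, rose (0.89, adjusted p = 0.000973), as did AMPD2, which deaminates adenosine monophosphate (0.65, adjusted p = 0.00568). HPRT1 (-1.10, adjusted p = 0.00014), PRPS2, a phosphoribosyl pyrophosphate synthetase (-0.72, adjusted p = 0.0156), and XDH, which oxidises purines to uric acid (-0.65, adjusted p = 0.000406), fell there. Around the methionine cycle SRM, the spermidine synthase, rose (0.77, adjusted p = 0.000401), while AHCYL2, the close relative of AHCYL1, fell (-0.91, adjusted p = 0.0026). Of the S phase genes that fell, RRM2, a ribonucleotide reductase subunit (-0.62), PCNA, the sliding clamp (-0.59), and MCM3, a helicase subunit (-0.59), lay close to 1.5-fold. The ATF4 response genes ASNS (-1.36), PSPH (-1.46) and VLDLR (-1.84) also fell, 3 of 10 tested beside 17.6% of all genes, each by limma at an adjusted p of 0.000845 or less.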
